A study of Xenopus laevis with 5 samples.

Results

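The genes described here encode the extracellular matrix and basement membranes of Xenopus laevis testis. They are the collagens, laminins, nidogens, fibronectin, elastic fibre components, thrombospondins and small proteoglycans, together with sparc, a matrix metalloproteinase and its inhibitor. Members were chosen by gene symbol, with earlier results of these data known. The symbols were col, lama, lamb or lamc followed by a number, fn1, fbn, fbln, nid, thbs or mfap. A short list of single genes was added (dcn, lum, bgn, sparc, tnc, mmp2, timp2, timp3 and postn). The rule found 34 of the 10007 named genes, read by 75 of the 43653 gene probes of the array. The 34 genes carry 28 symbols, because the frog's genome is duplicated and many genes exist as an L and an S copy. No probe was matched to lama, lamc, fbn, tnc, timp3, postn or a type IV collagen through the accessions on the array, and these genes are not analysed here.

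Testes came from male frogs that were exposed from the tadpole stage for 90 days to water with 0 µg/L of simazine (2 control samples) or 100 µg/L (3 samples). Simazine is a chlorotriazine herbicide, and the series asked about its effect on gene expression in developing males. The labels give no strain and no other treatment, and all groups were kept at the same temperature, light cycle and feeding regime. Each sample was hybridised to 1 one-colour Agilent array. The series text does not say that the testes came from separate animals, so p-values reflect only how far these arrays differ among themselves, and that spread may be technical.

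In a testis the seminiferous tubules or lobules are wrapped by a basement membrane, a sheet of laminin and collagen networks held together by nidogens, on which Sertoli cells and germ cells rest. Outside it lies connective tissue whose fibrils are built mainly from collagens of types I and III. Small leucine-rich proteoglycans such as decorin and lumican bind those fibrils and regulate their spacing, and fibulins and microfibril-associated proteins belong to the elastic fibre system. Peritubular myoid cells and fibroblasts are the usual source of the fibrillar matrix.

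The arrays were read in 2 scans, with control 1 and simazine 2 in scan 1 and control 2, simazine 1 and simazine 3 in scan 2, so each scan held both groups. The 75th percentile of the signal was 1564 to 6693, and 69.1% to 85.1% of gene spots were well above background. The scanner software marked 44.0% and 42.6% of the gene spots of the scan 1 arrays as non-uniform or outlying, against 5.78% to 9.999% in scan 2. Local distortions covered parts of every array, and spots in these areas, 25.5% of all, were left out of the test on all arrays. Of the tested markers of testis cells, 12 of 13 for Sertoli cells and 12 of 12 for spermatogenic cells were well above background on all 5 arrays. So were 21898 of all 26996 tested probes, 13 of 13 skeletal muscle markers and 17 of 17 epidermis and keratin markers. This measure therefore does not single out testis cells. Oocyte and egg markers differed between the groups. Of 24 tested, 23 were below 0 in simazine minus control and 13 passed the threshold, with a median log2 difference of -3.96. Their summed signal was 207 to 325 times the array's 75th percentile in control and 153 to 287 in simazine, and it overlapped because ddx4 and dazl, which male germ cells also express, made up most of it. Of the 24, 22 were well above background on all 5 arrays. Epidermis and keratin markers moved too, with 4 of 17 past the threshold and all 4 lower (limma), a median of -0.85 and summed signals of 59.9 to 139 in control and 24.7 to 80.3 in simazine. Of 10 intestine and pancreas markers none passed, and 1 passed with scan as a block (limma). Of these markers 3, all higher in simazine, met a looser criterion, a fold of 2 or more with an unadjusted p under 0.05 (limma). Their summed signals did not overlap, at 0.766 to 0.871 in control and 0.972 to 1.07 in simazine. Those of 11 fat body markers did not overlap either, at 18.78 to 18.84 in control and 16.6 to 17.3 in simazine. None of the 11 passed and 1 met the looser criterion. Over all tested probes 0.4% passed and 3.05% met the looser criterion, 2.28% lower and 0.77% higher in simazine. With scan as a block 258 of 26996 passed (limma). For 6.85% of single probes all simazine arrays lay below both controls, and for 7.5% above. No such share was computed for summed signals. The part of these lists in any difference described below was not tested, and in whole testes fewer cells of a type and less RNA per cell cannot be told apart.

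Most matrix genes differed little between simazine and control testes. Levels are given as log2 of the signal relative to the array's 75th percentile, and differences are simazine minus control on that scale. Of the 75 probes, 53 lay outside distorted areas. All 53 passed the filter on dim probes, and 50 of them were well above background on every array. Adjusted over all 26996 probes tested, 0 of the 53 passed an adjusted p of 0.05 (limma, Benjamini-Hochberg), where 0.4% of all probes did (0.385% lower and 0.0148% higher in simazine). An unadjusted p under 0.05 was reached by 2 of the 53 and by 3.85% of all. The looser criterion, a fold of 2 or more with an unadjusted p under 0.05, took 2 of the 53 (3.77%) against 3.05% of all tested probes, a share near the background. Both were lower in simazine, where 2.28% of all probes met it in that direction and 0.77% in the other. They were the L and the S copy of decorin. Differences were below 0 for 37 of the 53 probes, against 46.1% of all, with a median of -0.17 against 0.03 over all tested probes. With each gene represented by its brightest tested probe, 14 of 28 genes were below 0 and 14 above, with a median of -0.07 against -0.004 over 8089 named genes. The 28 values ranged from -1.48 to 0.52, and 20 of them were under 0.5 in size. The median level of the 28 genes on each array did not overlap between the groups. It was 0.25 and 0.11 in control and -0.58, -0.29 and -0.58 in simazine, with a pooled SD of 0.148. Such a median follows the genes in the middle of the ranking, which on control 1 were dcn.L (0.40) and fbln1.L (0.10). On control 2 they were mfap2.S (0.29) and fbln1.L (-0.07). The gap between these medians is therefore not a typical difference of the genes, whose median was -0.07. How often the median of a gene set of this size separates the groups was not computed.

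With 5 arrays, precision was limited. The standard error of a difference had a median of 0.352 over the 28 genes and ranged from 0.270 to 1.02. For 10 genes the 95% interval (limma) lay within a fold of 2 in both directions. For 16 others it reached past a fold of 2 on at least 1 side and included 0, so that a change of that size was not excluded by these arrays. Only the intervals of dcn.L and dcn.S lay entirely on 1 side of 0.

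**Figure D1:**
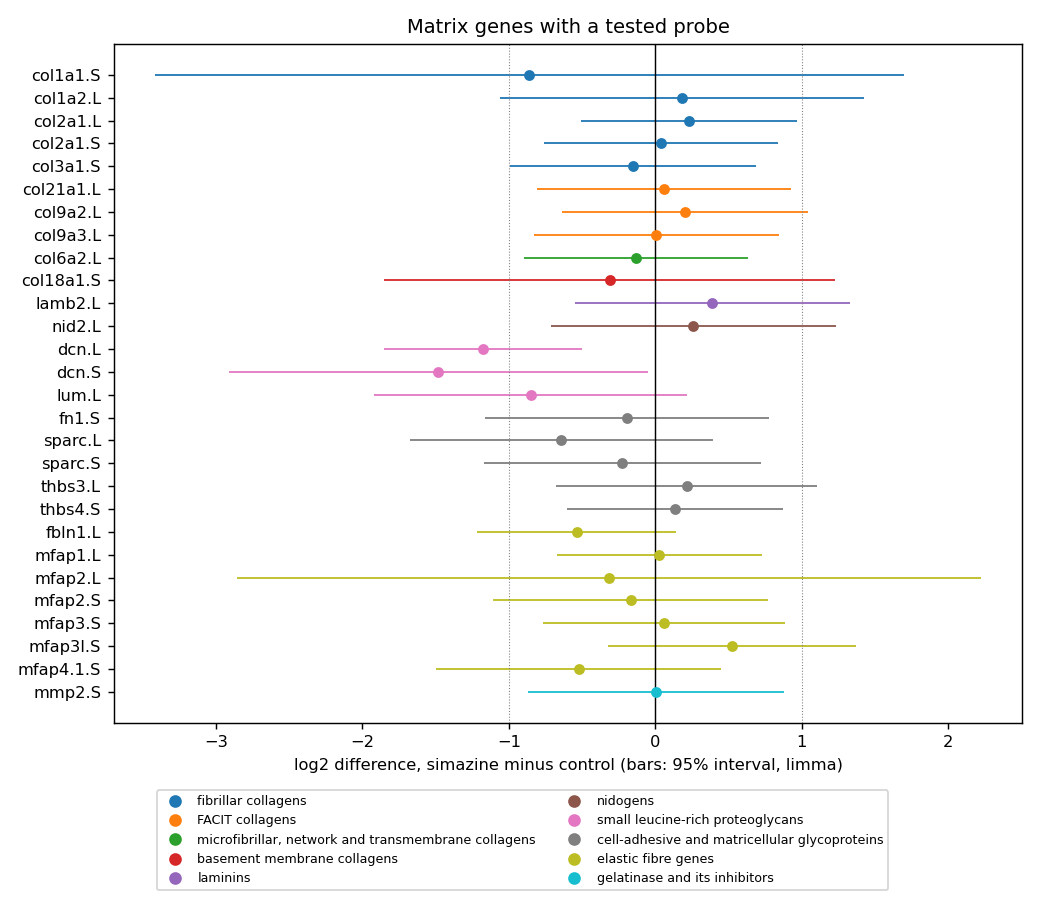
Log2 difference, simazine minus control, of the 28 matrix genes with a tested probe (points) with 95% intervals (bars, limma, 2 control and 3 simazine arrays), coloured by role. Dotted lines mark a fold of 2. Most points lie within 0.5 of 0, while dcn.L at -1.17 and dcn.S at -1.48 lie farthest to the left.

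Among the tested matrix genes, the lowest differences were those of both copies of decorin, a small leucine-rich proteoglycan. Decorin, which binds collagen fibrils and growth factors, was measured by 1 probe for each copy. The levels of dcn.L were 0.40 and 0.55 in controls 1 and 2 and -0.75, -0.64 and -0.71 in simazine 1, 2 and 3. Every simazine value was under both control values, with little spread inside either group. The difference of dcn.L was -1.17 (SE 0.270, 95% interval -1.85 to -0.50), or 2.26-fold lower in simazine, with an unadjusted p of 0.00601 and an adjusted p of 0.424 (limma), which misses the threshold. It was -1.04 within scan 1 and -1.28 within scan 2. With scan as a block in the fit its adjusted p was 0.0967. The dcn.L spots on control 1 and simazine 2 were among those marked by the scanner software. With marked spots left out, control 2 was the only control and the difference was the scan 2 value, -1.28.

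The S copy of decorin lay on the same side. Its levels were -2.35 and -0.98 in the control testes and -2.98, -3.82 and -2.65 in the simazine testes, so the groups did not overlap although the control arrays differed by more than 1 log2 unit. The difference of dcn.S was -1.48 (SE 0.570, 95% interval -2.91 to -0.05), or 2.79-fold, with an unadjusted p of 0.0445 and an adjusted p of 1.000 (limma). Within scans it was -1.46 and -1.83, and with scan as a block its adjusted p was 0.0717. The dcn.S spots on control 1 and simazine 2 were also marked. With marked spots left out, control 2 was again the only control and the difference was the scan 2 value, -1.83. The probe lies near a distorted area, with a local deviation of -0.467 on control 1, 0 on control 2 and simazine 1, -0.138 on simazine 2 and 0.268 on simazine 3; at dcn.L it was 0.0562 on control 1 and 0 on the other 4. The difference of dcn.S was -2.17 without control 1, -0.80 without control 2 and -0.76 with normexp background correction, each a shift of more than 1.5 times in fold. It no longer met the looser criterion with normexp, with no filter on dim probes, or without control 2, simazine 1 or simazine 2 (-0.80, -1.57 and -1.15). Whether the L and S probes also bind the other copy's RNA was not tested.

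Lumican, the corneal and connective tissue proteoglycan, had levels of -2.97 and -3.73 in control and of -4.33, -3.68 and -4.59 in simazine. Simazine 2 was slightly above control 2, so the groups overlapped. The difference of lum.L was -0.85 (SE 0.426, interval -1.92 to 0.22), with adjusted p = 1.000 (limma), and it was -0.71 and -0.73 within the scans. A second lum.L probe lies in a distorted area and was not tested. It read -6.05 and -3.55 in control and -3.74, -4.71 and -3.16 in simazine, a difference of 0.93 in the opposite direction. Biglycan was represented by 1 probe, just past the limit for distorted areas with a local deviation of 0.53. Its levels were 0.47 and 0.79 in control and 1.25, 0.56 and 1.11 in simazine, with overlap. Surrounding spots deviated by -0.459 and 0 on the control arrays and by 0.261, -0.532 and 0.320 on simazine 1, 2 and 3, so that the arrays with the lowest deviations also had the lowest levels.

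**Figure D2:**
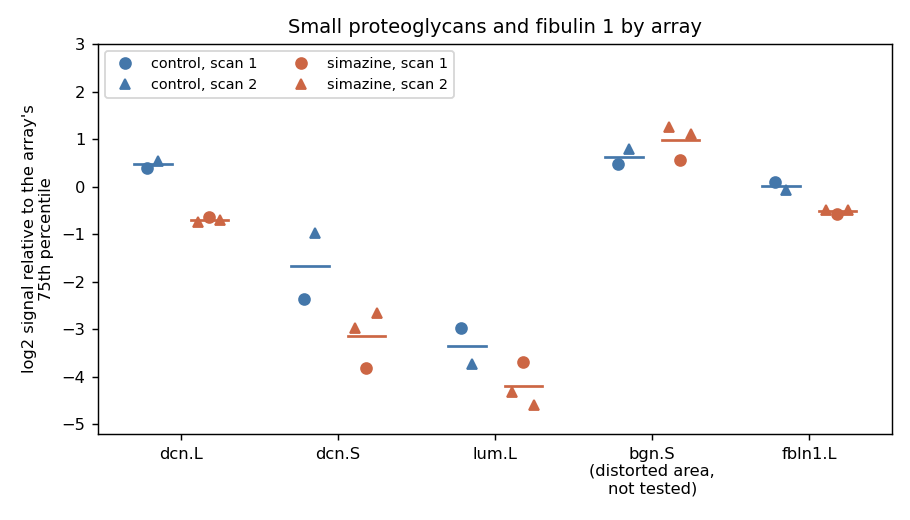
Log2 signal relative to the array's 75th percentile for decorin (dcn.L, dcn.S), lumican (lum.L), biglycan (bgn.S) and fibulin 1 (fbln1.L) on each array; circles are scan 1, triangles scan 2, and lines are group means. Control and simazine arrays separate for both decorin copies and for fbln1.L, and overlap for lum.L and bgn.S.

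Among genes of the elastic fibre system, fibulin 1 was, beside decorin, the only gene of the 28 whose brightest tested probe had all simazine arrays below the control arrays. Its levels were 0.10 and -0.07 in control and -0.50, -0.58 and -0.48 in simazine. The difference of fbln1.L, a glycoprotein of elastic fibres and basement membranes, was -0.54 (SE 0.270, interval -1.22 to 0.14; adjusted p = 1.000, limma), and it was -0.68 and -0.42 within the scans. Over the array 6.85% of tested probes had all simazine arrays below both controls, against 4 of 53 matrix probes (7.55%): dcn.L, dcn.S, fbln1.L and a dim probe of col1a2.L that was well above background on 1 of 3 simazine arrays. All simazine arrays lay above both controls for 7.5% of tested probes and for 1 matrix probe, that of mfap3l.S.

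The gene mfap3l.S, placed in this group by its symbol alone, had levels of -1.56 and -2.13 in control and -1.38, -1.04 and -1.54 in simazine. Its difference was 0.52 (SE 0.338, adjusted p = 1.000, limma), the highest of the 28 genes, with 0.52 and 0.67 within the scans. Its second probe, in a distorted area, had lower means in simazine by 0.36, so the probes differed in direction. The gene mfap4.1.S, a microfibril-associated glycoprotein, differed by -0.52 (SE 0.388) on its brighter probe and by -0.85 on the other. Its brighter probe read 0.07 and -0.45 in control and -0.66, -0.30 and -1.19 in simazine, with overlap. The other 4 members of this group, mfap1.L, mfap2.L, mfap2.S and mfap3.S, lay between -0.32 and 0.06. The symbol rule takes in mfap1, which is known in other vertebrates as a splicing factor rather than a matrix protein, and it differed by 0.03 (SE 0.279).

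The fibrillar collagens, the main building material of connective tissue, showed no difference past the threshold. For col1a1.S the arrays differed mainly by scan. The brightest col1a1.S probe, for the alpha 1 chain of type I collagen, read 3.81 on control 1 and 3.22 on simazine 2, the scan 1 arrays. It read 1.37 on control 2, 0.86 on simazine 1 and 1.12 on simazine 3, the scan 2 arrays. The lowest scan 1 value was thus well above the highest scan 2 value, whereas the control and simazine groups overlapped. The difference of this probe was -0.86 (SE 1.02, interval -3.41 to 1.70; adjusted p = 1.000, limma), the widest interval of the set, while within the scans it was -0.58 and -0.39. Without control 1 the direction turned, to 0.36. All 8 tested col1a1.S probes were higher on both scan 1 arrays than on all scan 2 arrays, by a median of 1.55. Their simazine minus control differences were all below 0, from -0.86 to -0.10 with a median of -0.52. These 8 probes read 1 transcript and are not independent. With scan as a block the differences ran from -0.49 to 0.05 and none passed (limma). Of the 8, 0 had an unadjusted p under 0.05 without the block.

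The alpha 2 chain of type I collagen, col1a2.L, had 5 tested probes with differences from -0.72 to 0.18 and a median of -0.46. Its brightest probe read 3.101 and 2.52 in control and 3.60, 3.15 and 2.23 in simazine, a difference of 0.18 (SE 0.496). Type III collagen, col3a1.S, which forms fine reticular fibrils, had 6 tested probes with differences from -0.33 to 0.20. Its brightest read 3.94 and 4.48 in control and 4.08, 3.79 and 4.31 in simazine, with overlap and a difference of -0.15 (SE 0.335, interval -0.99 to 0.69). Of the tested probes, 3 of 5 for col1a2.L and 4 of 6 for col3a1.S were higher on both scan 1 arrays than on all scan 2 arrays. Scan 1 was not higher throughout these genes. The scans overlapped for the brightest col1a2.L probe and for col2a1.L. The brightest col3a1.S probe was lower on both scan 1 arrays, with a mean difference of -0.42 (scan 1 minus scan 2). The 2 copies of type II collagen, the collagen of cartilage and of embryonic basement membranes, differed by 0.23 (col2a1.L, SE 0.294) and 0.04 (col2a1.S, SE 0.319). The levels of col2a1.L were -3.34 and -2.96 in control and -2.78, -2.94 and -3.03 in simazine.

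**Figure D3:**
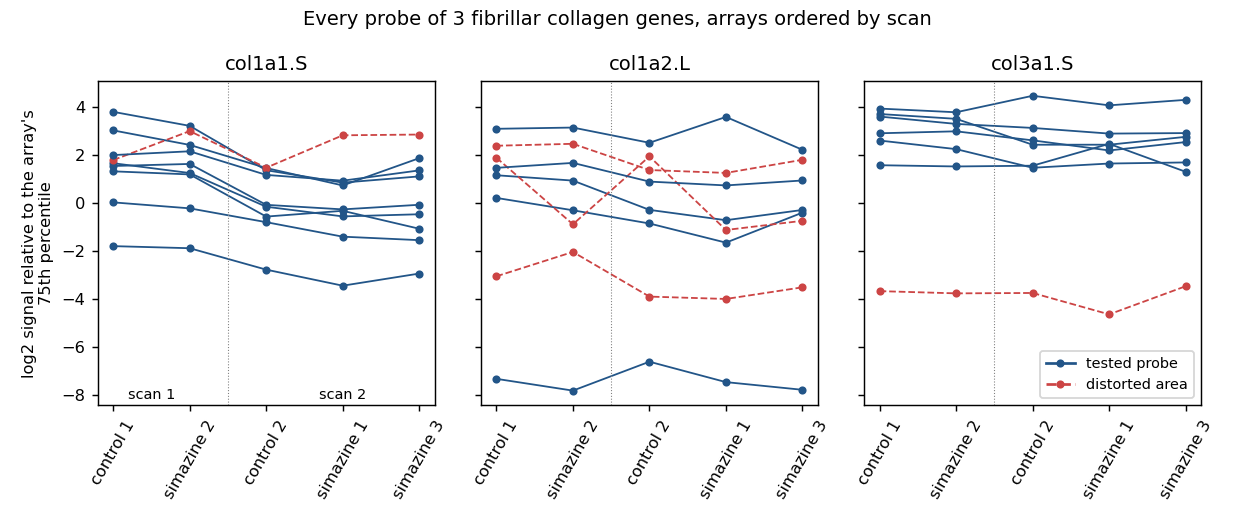
Log2 signal relative to the array's 75th percentile for every probe of col1a1.S, col1a2.L and col3a1.S, with the arrays ordered by scan (a dotted line divides scan 1 from scan 2); blue lines are tested probes and dashed red lines are probes in distorted areas. All 8 tested col1a1.S probes drop from scan 1 to scan 2, and 1 dashed col1a2.L probe reads 1.89 and 1.95 on the controls and -1.12 to -0.74 on the simazine arrays.

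Collagens that decorate or bridge fibrils also stayed near 0. Type IX collagen sits on the surface of type II fibrils. The gene col9a2.L read -5.15 and -4.75 in control and -5.09, -4.48 and -4.67 in simazine, a difference of 0.21 (SE 0.335). The gene col9a3.L read 0.63 and 0.43 in control and 0.38, 0.94 and 0.29 in simazine, a difference of 0.0079 (SE 0.334). The fibril-associated collagen gene col21a1.L differed by 0.06 (SE 0.346), from -3.85 and -4.29 in control to -4.37, -3.70 and -3.96 in simazine. Type VI collagen forms beaded microfibrils around cells, and its member col6a2.L read 2.94 and 3.43 in control and 3.18, 3.05 and 2.92 in simazine, a difference of -0.13 (SE 0.304, interval -0.90 to 0.63). Control and simazine arrays overlapped for all 4 of these genes.

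The basement membrane collagen, laminin and nidogen genes that could be tested overlapped between the groups. Type XVIII collagen, a heparan sulphate proteoglycan of basement membranes whose end fragment is endostatin, read 2.45 and 1.37 in control and 0.95, 2.55 and 1.29 in simazine (col18a1.S). As for col1a1.S, both scan 1 arrays were higher than all scan 2 arrays, and the difference was -0.31 (SE 0.614, interval -1.85 to 1.23). The laminin beta 2 chain, lamb2.L, read 2.21 and 1.32 in control and 1.94, 2.25 and 2.27 in simazine, a difference of 0.39 (SE 0.375). It was 0.04 within scan 1 and 0.79 within scan 2, where control 2 was the lowest array. Nidogen 2, which links laminin to type IV collagen, had 3 tested probes with differences of 0.26, -0.08 and -0.17. The brightest nid2.L probe read -0.37 and -1.27 in control and -0.72, -0.28 and -0.69 in simazine, with SE 0.388 and adjusted p = 1.000 (limma).

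Among adhesive and matricellular glycoproteins, none passed. Sparc, a calcium- and collagen-binding protein of remodelling matrix, had a tested probe for each copy. The gene sparc.L read -0.13 and -0.78 in control and -1.37, -0.56 and -1.37 in simazine, a difference of -0.64 (SE 0.412, interval -1.68 to 0.39). The gene sparc.S read 5.25 and 4.47 in control and 4.53, 4.96 and 4.42 in simazine, a difference of -0.23 (SE 0.376). Simazine 2, a scan 1 array, lay above control 2, a scan 2 array, for both copies. Both copies were higher on both scan 1 arrays than on all scan 2 arrays. Within scans 1 and 2 sparc.L differed by -0.42 and -0.59, and sparc.S by -0.29 and 0.0020. Fibronectin, fn1.S, the adhesive glycoprotein that integrins bind, had 5 tested probes with differences from -0.28 to 0.11. Of the thrombospondins, modular calcium-binding glycoproteins, thbs3.L differed by 0.21 (SE 0.356) and thbs4.S by 0.14 (SE 0.294). The levels of thbs3.L were -2.01 and -1.63 in control and -1.26, -2.02 and -1.54 in simazine.

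Matrix metalloproteinase 2, a gelatinase that cuts denatured collagen and type IV collagen, was level between the groups on this scale. The brighter mmp2.S probe read 1.78 and 1.11 in control and 1.21, 1.68 and 1.44 in simazine. Its difference was 0.0022 (SE 0.348, interval -0.87 to 0.88), and the second probe gave -0.12. The genes fn1.S, thbs4.S, col1a2.L, col2a1.S and the 4 mfap genes between -0.32 and 0.06 fall outside the naming rule and are named to account for every member.

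Distorted areas held 22 of the 75 probes (29.3%), and for 6 genes every probe lay in them: bgn.S, col18a1.L, col9a1.L, thbs1.L, thbs4.L and timp2.L. Their values are given with no test. The gene col9a1.L, for another chain of type IX collagen, read -0.83 and -0.46 in control and 1.64, 1.83 and 1.79 in simazine. The surrounding spots at that position deviated by -2.12 on control 1 and -1.43 on control 2 and by 0.285, 0 and 0.264 on simazine 1, 2 and 3. Thrombospondin 1, thbs1.L, read 5.71 and 3.60 in control and 2.96, 0.66 and 0.98 in simazine, without overlap and with a difference of -3.12, the largest of the 6 genes. The local deviation at thbs1.L was -1.372 on simazine 2. It was 0.0562 and 0.283 on controls 1 and 2, and 0.0456 and -0.0331 on simazine 1 and 3. The thbs1.L difference was -5.05 within scan 1, which holds simazine 2, and -1.63 within scan 2. What local distortion contributes to these values was not tested. For timp2.L, an inhibitor of metalloproteinases, levels were -2.45 and -2.52 in control and -1.02, -2.09 and -2.85 in simazine, with overlap. The gene col18a1.L read -3.64 and -3.46 in control and -5.34, -4.22 and -3.60 in simazine, a difference of -0.83 with overlap. The probes of thbs4.L differed by 0.15 and -1.10, both with overlap.

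Some probes in distorted areas departed from the tested probes of the same gene. A col1a2.L probe in a distorted area read 1.89 and 1.95 in control and -1.12, -0.88 and -0.74 in simazine, a difference of -2.83. The 5 tested probes of the same gene lay between -0.72 and 0.18. Local deviations at the probe in the distorted area were 0.0562 and 0.675 on controls 1 and 2. They were 0, -0.901 and -0.65 on simazine 1, 2 and 3. A col1a1.S probe in a distorted area differed by 1.26, in the opposite direction from the 8 tested probes. Local deviations there were -0.93 and -0.127 on controls 1 and 2 and 0.321, 0 and 0 on simazine 1, 2 and 3. Probes in distorted areas also departed for col18a1.S (0.68 against -0.31 on the tested probe) and col2a1.S (0.61 against 0.04). For fn1.S such a probe gave -0.86, against -0.28 to 0.11 on the tested probes. Others lay close to the tested probes, such as those of col9a2.L (0.17 against 0.21) and col3a1.S (-0.25 against -0.33 to 0.20). Whether local distortion accounts for the values of any of these probes was not tested. With distorted areas kept in the test, col9a1.L (2.40, adjusted p = 0.0464, limma) and this col1a2.L probe (adjusted p = 0.0336) passed the threshold.

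Because each scan held both groups, every difference could also be read inside a scan, where simazine 2 is set against control 1 and the mean of simazine 1 and 3 against control 2. Over the 28 genes the median was 0.02 within scan 1 and -0.11 within scan 2, against 0.06 and 0.03 over all named genes. Both decorin copies lay below -1 in each scan, and lum.L, fbln1.L, sparc.L, mfap4.1.S, col1a1.S and col3a1.S lay below 0 in each. On the other side mfap3l.S lay above 0.5 in each, and col21a1.L, thbs4.S, col1a2.L, col2a1.L, col2a1.S, lamb2.L and nid2.L lay above 0 in each. By brightest tested probe, as many genes were thus above 0 in both scans as below. This balance depends on the probe chosen. Over all 5 tested col1a2.L probes the median was -0.22 within scan 1 and -0.17 within scan 2. Over the 3 tested nid2.L probes it was 0.09 and 0.21. These within-scan values have 1 control each and no test. Between the scans, 33 of the 53 matrix probes (62.3%) were higher on both scan 1 arrays than on all scan 2 arrays, against 34.5% of all tested probes. Among the 33 were 8 probes of col1a1.S, 3 of col1a2.L and 4 of col3a1.S, and probes of 1 transcript are not independent. With scan as a block 0 of the 53 matrix probes passed (limma), where 258 probes of the whole array did, and the lowest adjusted p was 0.0717, for dcn.S.

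**Figure D4:**
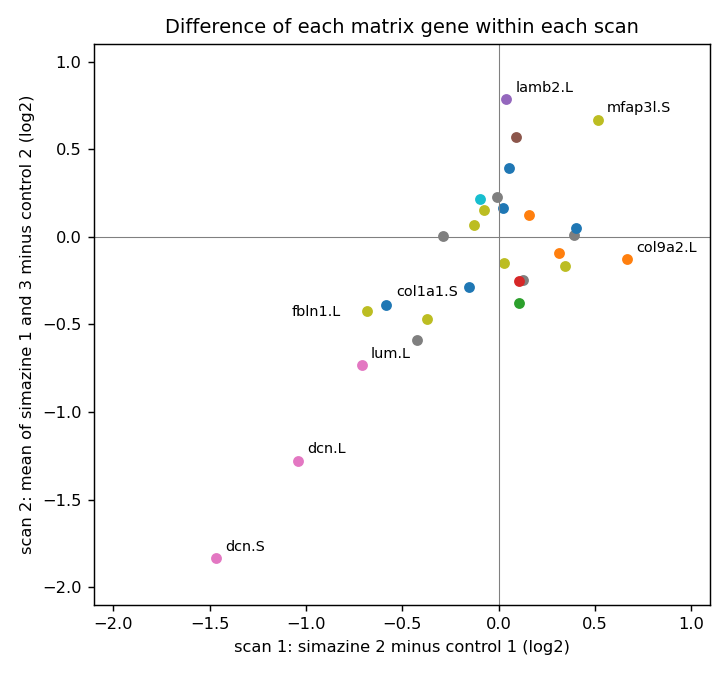
Log2 difference of each of the 28 matrix genes within scan 1 (simazine 2 minus control 1, horizontal) and within scan 2 (mean of simazine 1 and 3 minus control 2, vertical), coloured by role as in the plot of all matrix genes. The points for dcn.L and dcn.S lie below -1 on both axes, and most others lie around 0.

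Genes that make, modify, bind or cut the matrix were read from lists chosen by function. None of 22 tested genes for collagen folding and cross-linking passed the threshold (limma), and 14 were below 0, with a median of -0.075. One of them met the looser criterion: colgalt1.L, which adds galactose to collagen, at -1.97 (SE 0.619, adjusted p = 0.907, limma). It was well above background on both control arrays and on 1 of 3 simazine arrays, and its S copy differed by -0.13. Among 8 other matrix proteins the median was -0.088 and the lowest p belonged to ogn.S, osteoglycin, another small leucine-rich proteoglycan. Its levels were -3.20 and -3.23 in control and -3.63, -3.80 and -4.78 in simazine, without overlap, a difference of -0.86 (SE 0.434, adjusted p = 1.000, limma). Asporin, aspn.L, of the same family, differed by -0.11 (SE 0.678) with overlap, and by -0.87 and 0.06 within the scans; it was added after its value was seen. The next in order of p, matn1.L, a cartilage matrilin, differed by -0.70 (SE 0.536), and by 0.16 and -1.10 within scans 1 and 2. Like colgalt1.L, it was well above background on both control arrays and on 1 of 3 simazine arrays.

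None of 15 matrix receptor genes passed either (limma; 0 had an unadjusted p under 0.05), with a median of -0.087. The fibronectin receptor chain itga5.L differed by -0.44 (SE 0.350) and syndecan 4, sdc4.L, by 0.32 (SE 0.326). Of 18 other proteases and inhibitors 5 were below 0, with a median of 0.099. The metalloproteinase adamts1.L, which cleaves large proteoglycans, differed by -1.68 (SE 0.781), from 0.55 and 0.80 in control to 0.14, -2.46 and -0.70 in simazine. The membrane protease adam10.S differed by 0.57 (SE 0.346). Of 14 genes of the TGF-beta axis, a main inducer of matrix genes, 4 were below 0, with a median of 0.118. Its ligand tgfb1.L differed by 0.57 (SE 0.315) and its receptor tgfbr1.S by 0.34 (SE 0.301). In these 2 lists 0 genes passed and 0 had an unadjusted p under 0.05 (limma).

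Markers of cells that make matrix were read in the same way. Of 9 smooth muscle and peritubular myoid markers 7 were below 0, with a median of -0.40 and none passing (limma; 0 had an unadjusted p under 0.05). With scan as a block 1 of the 9 passed, where 258 of 26996 probes of the whole array did (limma). Within the scans the median was -0.13 and -0.08, and the summed signal was 97.3 to 128 in control and 64.3 to 134 in simazine. Of 7 cartilage and bone markers 2 were below 0, with a median of 0.21. Their summed signal overlapped, at 32.2 to 63.1 in control and 37.5 to 72.6 in simazine. Of 7 endothelial markers 1 was below 0, with a median of 0.089. What these cell markers contribute to the decorin values was not tested.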

How the data were processed

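Per the file headers, the scanner tables, 1 for each array, come from Feature Extraction 10.7.3.1 and hold linear, background-subtracted intensity values and 0 or 1 marks for each spot. A second table, deposited by the authors, holds log2 values of 27228 probes, equal in a comparison with the scanner tables to log2 of the processed signal minus a constant per array (array medians 0.949 to 1.06), set by a statistic that is unknown. No source used here names a genome build.

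The members and lists were chosen with earlier results of these data known. Probes were named through accessions matched to RefSeq symbols (assembly Xenopus_laevis_v10.1; 10012 of 36331 accessions). No probe or protein sequence was used. Processed signals were set on the log2 scale relative to each array's 75th percentile, and spots of a probe were averaged. Marked spots were kept, because leaving them out removes most matrix values of scan 1 (44 of 53 tested probes are marked on control 1). Spots were dropped from every array where the median deviation from the 5-array median over the surrounding 5 rows and 9 columns exceeded 0.5 on any array. This limit was chosen with the values known. Probes well above background on at least 2 arrays were tested with limma 3.58.1 in R 4.3.3 (lmFit and eBayes, two-sided) with Benjamini-Hochberg adjustment over 26996 probes; the fit was checked on simulated data. Mean signals are not in the scanner tables, so normexp used median signals with an offset of 50. The rule for named genes took members past the threshold or the looser criterion, the 3 smallest p in each role, and members whose tested probes differ by over 1; it gave 20 genes, and for each function list the genes past either criterion or else the 2 smallest p. Levels of different probes are not compared.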

Additional observations from a re-analysis of the deposited data

How the results depend on the processing

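The median difference over the matrix genes, -0.07 in the main fit, moved by less than 0.148 in all alternatives except without control 1 (0.0892). That limit is the pooled SD of the median level, so a change of sign can fall within it. The median was above 0 in some alternatives, such as scan as a block (0.018) and normexp (0.018). It was below 0 in others, such as scan 2 alone (-0.11) and the mean of all tested probes (-0.12). It lay between -0.20 and 0.0892 when arrays were left out in turn. No matrix probe passed the threshold (limma) except with distorted areas kept (2) and with a local deviation limit of 1 (1); the probes concerned lie in distorted areas. The looser criterion took 6 matrix probes with distorted areas kept, 5 with marked spots left out and distorted areas kept (an alternative chosen after seeing the data), 4 at a limit of 1, and 1 at a limit of 0.3, with normexp or with no filter on dim probes; the number was 1 to 3 when arrays were left out. The difference of dcn.L lay between -1.28 and -1.04 in all 18 alternatives, and that of dcn.S between -2.17 and -0.76 in 17. These alternatives are not separate checks. Those that change only which other probes are tested cannot move either difference, and they left dcn.L at -1.17 and dcn.S at -1.48. Leaving marked spots out and using scan 2 alone gave the same values, -1.28 and -1.83, because the same arrays remained. At a limit of 0.3 dcn.S was not tested.

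Over the whole array the number called (limma) was 372 with distorted areas kept, 258 with scan as a block, 43 with no filter on dim probes, 17 with normexp, 1 with marked spots left out (with distorted areas kept or not) and 0 in scan 2 alone, and 0 to 53 when arrays were left out. The looser criterion took 2978 probes with distorted areas kept, and 2460 with distorted areas kept and marked spots left out. With both left out it took 774, against 824 in the main fit, and at a limit of 1 it took 1437. The number was 1277 in scan 2 alone, 512 at a limit of 0.3 and 505 with probes above background on all arrays. It was 413 with normexp and 706 to 1532 without 1 array.

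Some named genes turned sign, among them col1a1.S (-0.86), lamb2.L (0.39), col18a1.S (-0.31) and nid2.L (0.26). Within scan 1 the turned values were those of col18a1.S (0.10), thbs3.L (-0.0058), mmp2.S (-0.0940) and col6a2.L (0.11), and within scan 2 col9a2.L (-0.13), col9a3.L (-0.0935) and sparc.S (0.0020). With marked spots left out they were col9a3.L (-0.0935), lamb2.L (-0.0528) and col6a2.L (0.0454), with quantile normalization sparc.S (0.0405) and col3a1.S (0.14), and with the mean of all probes mmp2.S (-0.0576). When arrays were left out, the ranges were -0.85 to 0.23 for col18a1.S, -2.08 to 0.36 for col1a1.S, -0.15 to 0.28 for col21a1.L, -0.42 to 0.11 for col3a1.S, -0.38 to 0.11 for col6a2.L, -0.19 to 0.13 for col9a3.L, -0.0528 to 0.83 for lamb2.L, -0.33 to 0.34 for mmp2.S, -0.19 to 0.71 for nid2.L and -0.62 to 0.16 for sparc.S. The cause was not tested. Fits without 1 control assume that the lone control varies like the simazine arrays. No paired analysis was possible because the labels pair no control with a simazine sample.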
